A study of Oikopleura dioica with 8 samples.

Results

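GSOIDT00006036001, the gene model of *Oikopleura dioica* annotated as pyruvate kinase by the study, is described here in total RNA, in ribosome protected fragments (RPF) and in the ratio of RPF to total RNA (translational efficiency, TE). It is 1 of 17212 gene models in the table and 1 of the 14595 with at least 100 reads over the 8 libraries. It was chosen because of its total RNA, RPF and TE values in these same libraries, so its own differences are given as a description, with no test. Whole animals were grown at normal density until day 3 and then kept crowded and underfed so that growth stopped (stasis), and they were sampled on day 7 in stasis or 30 min after they were moved back to normal density (release). Food was present at release, so the released animals differed from those in stasis in density and in feeding, and these cannot be told apart here. Both states shared the crowded culture, and the labels name no drug or genetic change in either. There were 2 biological replicates per state, each a pool of many animals, and both assays were run on every replicate. The libraries were sequenced on 2 flow cells, and which library ran on which is not given in the sources used here. The name rests on the study's annotation alone. No sequence of this gene model was used here, and its identifier had 0 matches in the RefSeq gene table, so neither its sequence nor its position is shown.

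Pyruvate kinase catalyses the last step of glycolysis. It passes a phosphate from phosphoenolpyruvate to ADP, which yields ATP and pyruvate, the feed of lactate formation or of the mitochondrial citrate cycle. In vertebrates the enzyme is known for its separate muscle, liver and blood cell forms. Some of its forms are activated by fructose bisphosphate, an earlier intermediate of the same pathway. *O. dioica* is a planktonic tunicate that filters algae through a secreted mucous house and swims with a muscular tail, and it can wait in stasis for days until crowding is relieved.

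The total RNA libraries held between 13041273 and 22839600 reads and the RPF libraries between 261745 and 1488886, with replicate 2 the shallower RPF library in both states. Values below are CPM, reads per 1000000 after TMM scaling (a correction for library composition) within each assay, unless they are called RPM, which is reads per 1000000 of the plain library total. Intervals on single libraries are 95% intervals and cover counting error only.

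Total RNA of the pyruvate kinase gene model was several-fold higher on release. In replicates 1 and 2 the stasis libraries held 431 and 432 of its reads, and the release libraries 2957 and 4550. These were 28.9 and 32.1 CPM in stasis and 196 and 211 CPM on release. Both release libraries lay far above both stasis libraries, and the replicates of each state lay close together. As shares of the library they were 30.9 RPM (Wilson interval 28.2 to 34.0) and 33.1 RPM (30.1 to 36.4) in stasis, and 187 RPM (181 to 194) and 199 RPM (194 to 205) on release. The state means were 30.5 ± 2.27 CPM in stasis (SD, n = 2) and 203 ± 11 CPM on release (SD, n = 2), and the log2 difference fitted by edgeR was 2.74 (standard error 0.12), or 6.67-fold. In whole animals, a larger share of the cells that hold a transcript and more of it per cell cannot be told apart.

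This was the largest log2 increase among the 14595 gene models, which is one of the values the gene model was chosen for. The lower release library exceeded the higher stasis library by 6.09-fold, and the next gene model in that order had 3.43-fold. Both release libraries lay above both stasis libraries for 31.3% of all gene models tested, so lack of overlap alone is common in these data. A log2 increase of at least 1 was seen in 567 gene models (3.88%) and one of at least 2 in 5 (0.0343%). By read number, which is not corrected for gene length, pyruvate kinase ranked 6333 and 5885 of 14595 in the stasis libraries and 851 and 782 in the release libraries. The absolute log2 difference between its replicates was 0.15 in stasis and 0.11 on release, where the median absolute difference over all gene models was 0.18 and 0.12.

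**Figure D1:**
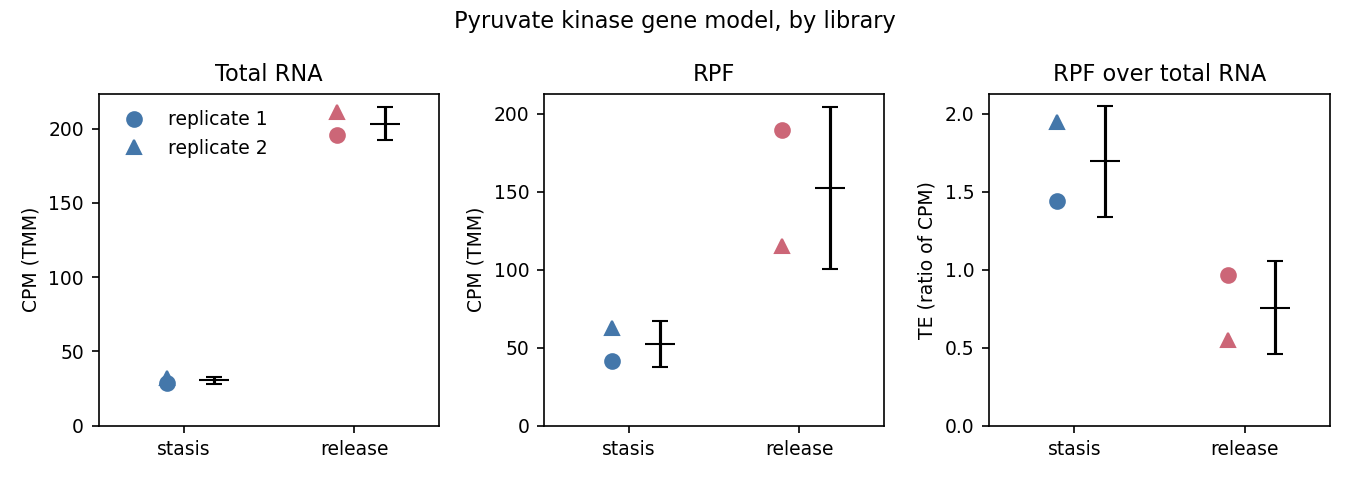
Total RNA (CPM), RPF (CPM) and TE (RPF CPM over total RNA CPM) of the pyruvate kinase gene model in each library or sample, with circles for replicate 1, triangles for replicate 2 and the mean ± SD (n = 2) beside them. Total RNA on release lies at 196 and 211 CPM against 28.9 and 32.1 CPM in stasis, RPF is higher by less, and TE is lower on release in both replicates.

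Ribosome protected fragments on the gene model were also more frequent on release, by less than its total RNA. Footprint reads numbered 69 and 13 in the stasis libraries and 277 and 34 in the release libraries, or 41.7 and 62.5 CPM in stasis and 189 and 115 CPM on release. The groups did not overlap, as for 12.8% of all gene models in this direction, and 4.61% were without overlap in this direction in both assays. The lower release library exceeded the higher stasis library by 1.85-fold. The release replicates lay further apart than the stasis replicates, with log2 differences of 0.71 and -0.57 (replicate 1 minus replicate 2). The median absolute difference over the 1804 gene models that had 10 or more reads in each library was 0.47 on release, below that of pyruvate kinase, and 0.74 in stasis, above it.

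The shares were 46.3 RPM (Wilson interval 36.6 to 58.6) and 49.7 RPM (29.0 to 85.0) in stasis, and 223 RPM (198 to 251) and 110.1 RPM (78.8 to 154) on release. The intervals of the stasis and release libraries were apart in replicate 1 and overlapped in replicate 2, where the depth was lower. The fitted log2 difference was 1.61 (standard error 0.66), or 3.04-fold. It ranked 1041 among the increases of all 14595 gene models, many of them with few RPF reads, and 9 among the 1804 that had 10 or more reads in each of the 8 libraries. Across all gene models, edgeR's quasi-likelihood test called 0 higher and 1 lower in RPF after Benjamini-Hochberg adjustment (0% and 0.00685%). At an unadjusted p under 0.05 it gave 53 higher (0.363%) and 108 lower (0.74%). With DESeq2 the adjusted calls were 0 in either direction, and the unadjusted ones 23 and 47. In counts simulated with the spread of these libraries, the edgeR RPF test called 2 of 100 gene models changed by a log2 of 2. The lack of calls therefore does not show a lack of change.

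TE of the pyruvate kinase gene model was high in stasis and lower on release. It was 1.44 in stasis replicate 1 (exact interval 1.10 to 1.86) and 1.94 in stasis replicate 2 (1.03 to 3.36). On release it was 0.967 in replicate 1 (0.852 to 1.09) and 0.547 in replicate 2 (0.378 to 0.765). Both release samples lay below both stasis samples, as for 17.7% of the 1804 gene models, and the counting intervals of stasis replicate 2 and release replicate 1 overlapped. Mean TE was 1.69 ± 0.356 in stasis (SD, n = 2) and 0.757 ± 0.298 on release (SD, n = 2), and the fitted interaction of state and assay was -1.05 on the log2 scale (standard error 0.54). From the lowest, it ranked 2115 of 14595 and 147 of the 1804.

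Set against gene models that had 10 or more reads in both libraries of a sample, pyruvate kinase had a higher TE than 85.8% of 9008 in stasis replicate 1 and than 89.8% of 2256 in stasis replicate 2. On release the shares were 74.6% of 8696 and 37.1% of 3083. The limit of 10 reads removes more gene models with few footprints in the shallower replicate 2. Shares of replicates 1 and 2 thus have unlike backgrounds. In the stasis samples pyruvate kinase lay above the upper quartile, and on release it lay just under that quartile in replicate 1 and under the median in replicate 2. As the ratio of mean RPM values, TE was 1.5 in stasis and 0.863 on release, a log2 change of -0.80 where the median of 13343 gene models was 0.29. Total RNA, on which the gene model was chosen, is the denominator of TE. The TE test called 0 gene models higher and 0 lower over the whole table (0% each) by edgeR. Unadjusted, 357 were higher (2.45%) and 510 lower (3.49%). DESeq2 called 0 of each, with 173 and 321 unadjusted. In simulated counts the edgeR TE test called 0 of 100 gene models changed by a log2 of 1, and 19 of 100 changed by 2. The lack of calls therefore does not show a lack of change. The study, with another test, reported many TE increases on release and far fewer decreases.

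**Figure D2:**
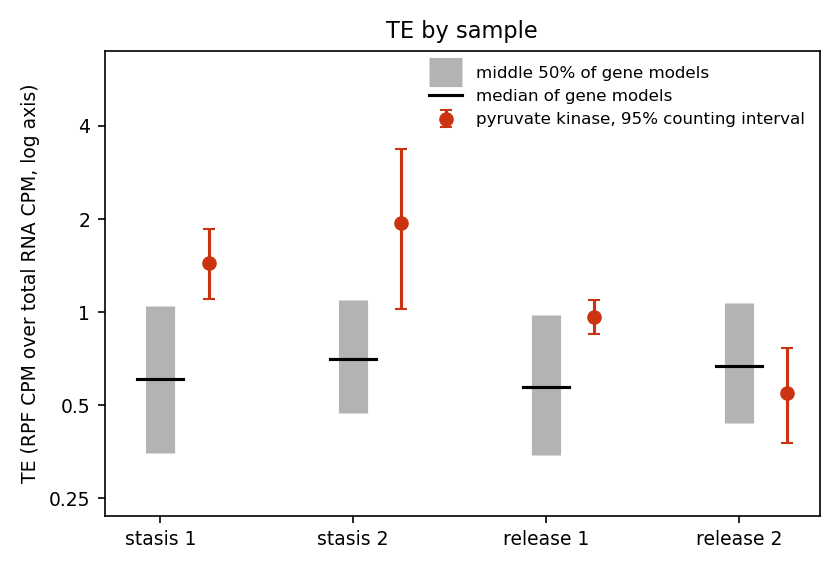
TE (RPF CPM over total RNA CPM, log axis) in each of the 4 samples, with pyruvate kinase as a point with its 95% counting interval, and the quartile range (grey) and median (line) of gene models that had 10 or more reads in both its libraries. Pyruvate kinase lies above the grey range in stasis, at 1.44 and 1.94, and within it on release, at 0.967 and 0.547.

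Pyruvate kinase was set beside the gene models whose total RNA rose most. With a total RNA increase past the threshold, a log2 change of at least 1 and 10 or more reads in each library, there were 86, itself included. Their median log2 change in RPF was 0.10 (quartiles -0.29 and 0.38), with 52 above 0, and that of pyruvate kinase, 1.61, was the largest of the 86. For TE the median change of the 86 was -1.25 on the log2 scale, with quartiles of -1.46 and -0.91 and 0 above 0. The TE change of pyruvate kinase ranked 32 of 86 from the highest. The pattern of total RNA higher, RPF higher and TE lower, all without overlap, was found in 11 of the 1804 gene models (0.61%). These values describe gene models selected on total RNA, and the 3 measures come from the same samples.

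**Figure D3:**
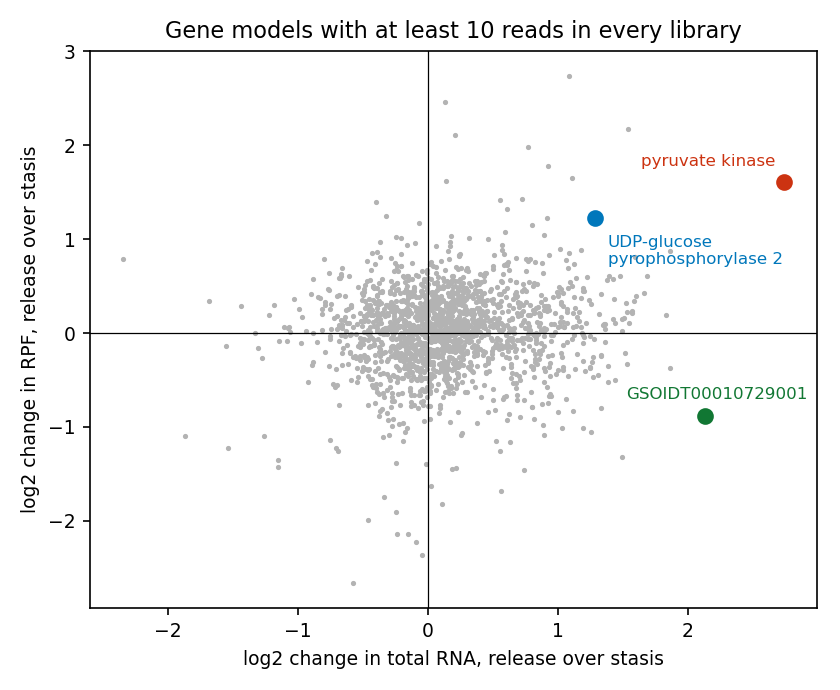
Log2 change in RPF against log2 change in total RNA (release over stasis, edgeR) for the 1804 gene models that had 10 or more reads in each library. Pyruvate kinase lies at 2.74 in total RNA and 1.61 in RPF, UDP-glucose pyrophosphorylase 2 at 1.29 and 1.22, and GSOIDT00010729001 at 2.13 and -0.88.

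The next 5 increases in total RNA that passed the threshold without overlap had RPF changes smaller than that of pyruvate kinase or too few RPF reads to give one. GSOIDT00002159001 had 10.9 and 6.99 CPM in stasis and 37.3 and 57.1 CPM on release, a log2 change of 2.40. Its footprint reads were 58 and 2, then 52 and 21, a log2 difference of 1.02. GSOIDT00010729001 had 45.3 and 63.7 CPM in stasis and 219 and 258 CPM on release, a log2 change of 2.13. Its footprint reads were 109 and 22, then 44 and 19, a log2 difference of -0.88, so its RPF difference had the opposite sign to that of pyruvate kinase. GSOIDT00018124001 and GSOIDT00007034001, with log2 changes of 2.11 and 2.06, had at most 2 RPF reads in any library. GSOIDT00008554001, annotated as a rhamnose binding lectin (a family of sugar-binding proteins), had a log2 change of 1.99 in total RNA and -0.13 in RPF. No annotation of the first 4 was used here.

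The gene models most like pyruvate kinase were ranked by the Euclidean distance of log2(CPM + 1), centred on each gene model's mean. Over the 4 total RNA libraries the nearest of 14594 were GSOIDT00010729001 (distance 0.63), GSOIDT00002159001 (0.75) and GSOIDT00006318001 (0.78), where the median distance was 2.72. GSOIDT00006318001 had 18.5 and 22.8 CPM in stasis and 73.6 and 89.0 CPM on release. Over all 8 libraries the nearest of 1803 gene models that had 10 or more reads in each were GSOIDT00001344001 (distance 1.96), GSOIDT00004497001 (2.01) and GSOIDT00017625001 (2.05), beside a median of 3.46. The second of these is annotated as UDP-glucose pyrophosphorylase 2, the enzyme that makes UDP-glucose, the donor for glycogen and other glucose polymers. The total RNA change was 0.91 for GSOIDT00001344001 (edgeR adjusted p = 0.0267) and 1.08 for GSOIDT00017625001 (edgeR adjusted p = 0.164).

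The annotation also marks each transcript as *trans*-spliced or not, that is, with or without the spliced leader joined to its 5′ end, and as present in the oocyte or not. The pyruvate kinase transcript is marked as *trans*-spliced, present in the oocyte and not a canonical TOP mRNA. The 1998 rows used here are the top of a sorted table, so no enrichment was tested on them. Of the 171 tested gene models in these rows that are *trans*-spliced and in the oocyte, 7 were called higher in total RNA (4.09%) and 4 lower, with a median log2 change of -0.08. Over all gene models 6.8% were called higher and 2.27% lower (edgeR, adjusted p under 0.05), with a median of -0.02. Pyruvate kinase had the largest change of all gene models and therefore also of the 171, where the next was 1.59. In the 1233 rows that are neither *trans*-spliced nor in the oocyte, 15.2% were called higher, with a median of 0.20 and a largest change of 1.99. Pyruvate kinase thus carried the marks of the class with the lowest share of higher calls in these rows.

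Among 12 other gene models annotated with carbohydrate enzymes and transporters, all of them tested, 3 rose in total RNA and 0 fell, where 6.8% of all gene models rose and 2.27% fell. This list and those below were drawn from the annotation in the same rows, which hold 1 entry named for pyruvate. The rows cover 1853 of the 14595 tested gene models, so other glycolytic genes may be missing. By class of marks, 4.09% to 15.2% of these rows were called higher, so the share over all gene models is not their own background. Glyceraldehyde-3-phosphate dehydrogenase (GAPDH, GSOIDT00002377001), the oxidising enzyme of glycolysis, had 25.9 and 28.2 CPM in stasis and 59.0 and 45.7 CPM on release. The release libraries lay above the stasis libraries, by a log2 change of 0.95 (standard error 0.15, edgeR adjusted p = 0.0295). Its footprint reads were 85 and 4, then 260 and 14, a log2 difference of 1.59 (standard error 0.67), and its TE differed by 0.59 (standard error 0.67), and neither passed the threshold.

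UDP-glucose pyrophosphorylase 2 had 95.1 and 94.1 CPM in stasis and 220.2 and 241 CPM on release, so the groups were apart and the replicates close. It rose by a log2 change of 1.29 (standard error 0.11, edgeR adjusted p = 0.0246). Its footprint reads were 147 and 12, then 218 and 60, a log2 difference of 1.22 (standard error 0.64), and its TE differed by -0.11 (standard error 0.52). UDP-glucose 4-epimerase (GSOIDT00013355001), which interconverts UDP-glucose and UDP-galactose, rose from 95 and 113 CPM to 182 and 207 CPM (log2 change 0.90, standard error 0.14, edgeR adjusted p = 0.0268). Its footprint reads were 180 and 5, then 81 and 12, with log2 differences of -0.54 in RPF (standard error 0.68) and -1.53 in TE (standard error 0.68), neither past the threshold and both opposite in sign to those of GAPDH. These 3 transcripts are marked as *trans*-spliced and in the oocyte, as is that of pyruvate kinase.

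The other 9 had log2 changes between -0.68 and 0.67 and did not pass the threshold. They include carbohydrate kinase (GSOIDT00014374001), with 13.4 and 12.3 CPM in stasis and 8.20 and 7.85 CPM on release (edgeR adjusted p = 0.0514), which passed as lower when library totals replaced TMM. Over the 9 settings that held carbohydrate kinase its log2 change lay between -0.83 and -0.63. A second UDP-glucose 4-epimerase (GSOIDT00004268001), marked as not *trans*-spliced, had 35.2 and 29.5 CPM in stasis and 45.1 and 43.4 CPM on release. Its log2 change was 0.45 (edgeR adjusted p = 0.0804). The median of the 12 was 0.29, with 8 above 0 (48% of all gene models), and it was 0.15 with 6 above 0 on library totals, where the median of all gene models moved from -0.02 to -0.16. Without release replicate 1 or 2, 0 of the list were called, as for all gene models, and without stasis replicate 1 the count was 6, of 2227 over all gene models. In RPF and TE 0 of the 12 were called.

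Of 8 gene models annotated as creatine, adenylate or nucleoside diphosphate kinases or the like, which pass phosphate between nucleotides or to and from creatine, 1 rose and 0 fell in total RNA, where 6.8% of all gene models rose and 2.27% fell. Adenylate kinase 1 (GSOIDT00005940001), which interconverts ATP, ADP and AMP, had 14.4 and 12.2 CPM in stasis and 33.2 and 23.3 CPM on release (log2 change 1.08, standard error 0.21, edgeR adjusted p = 0.0382), and it did not pass on library totals. A gene model annotated as creatine flagellar (GSOIDT00003422001) had 34.4 and 22.7 CPM in stasis and 88.3 and 42.4 CPM on release (edgeR adjusted p = 0.105). Creatine kinase M (GSOIDT00009884001), which regenerates ATP from phosphocreatine, had 8.92 and 11.8 CPM in stasis and 12.6 and 14 CPM on release (edgeR adjusted p = 0.245). The median of the 8 was 0.13, and DESeq2 called 2 higher, of 1298 over all gene models.

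Of 17 gene models for mitochondrial carriers, cytochrome c and the handling of acyl groups, mostly steps downstream of or parallel to glycolysis, 0 rose and 0 fell in total RNA by edgeR (6.8% and 2.27% of all gene models). Unadjusted, 5 were higher and 1 lower at p under 0.05, beside 17.3% and 13% of all gene models, and DESeq2 called 4 higher, of 1298 over all gene models. Their median log2 change was 0.02. Cytochrome c (GSOIDT00005670001), the electron carrier of the respiratory chain, had 10.3 and 8.18 CPM in stasis and 31.1 and 17 CPM on release (edgeR adjusted p = 0.0554). The mitochondrial phosphate carrier (GSOIDT00017393001) had 65.5 and 64.6 CPM in stasis and 157 and 91.3 CPM on release (edgeR adjusted p = 0.0774). A choline/carnitine acyltransferase (GSOIDT00012630001) had 16.4 and 9.74 CPM in stasis and 25.2 and 22 CPM on release (edgeR adjusted p = 0.0940). For cytochrome c and the phosphate carrier release replicate 1 was well above release replicate 2.

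**Figure D4:**
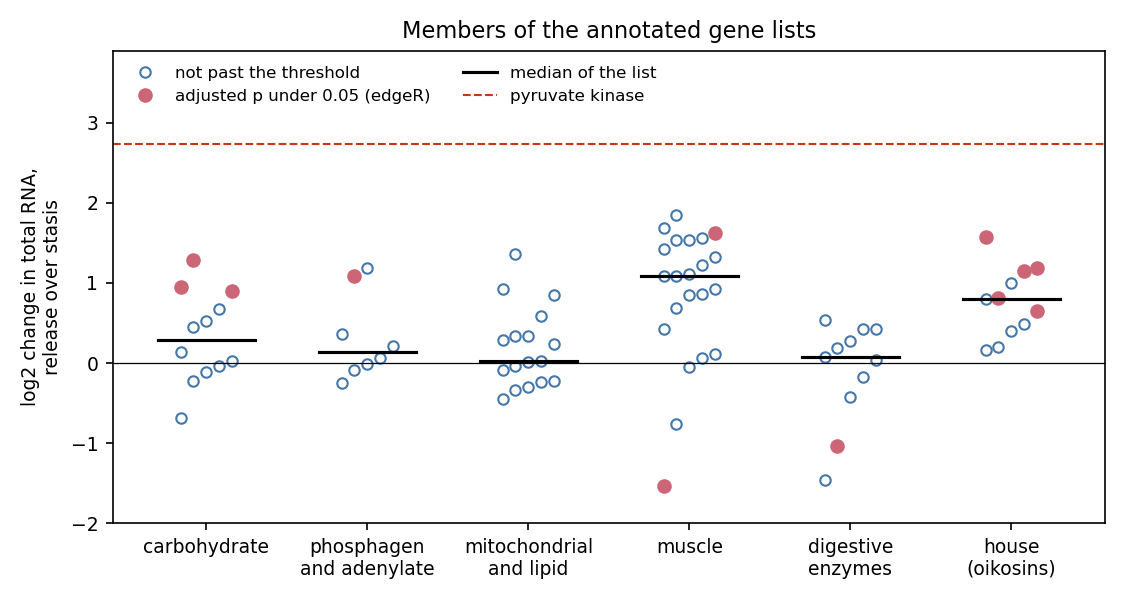
Log2 change in total RNA (release over stasis, edgeR) of each tested member of 6 lists drawn from the annotation, with filled points for members with an adjusted p under 0.05, open points for the others, a line at each list's median and a dashed line at pyruvate kinase (2.74). The carbohydrate list has 3 filled points above 0 and the house list has 5. Pyruvate kinase had the largest change of all gene models, so no member of any list reaches it.

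Because whole animals were sampled, markers of tissues that could hold pyruvate kinase transcripts were summed in every total RNA library. The 22 tested muscle gene models of 23 summed to 2022 and 2136 CPM in stasis and to 6091 and 2638 CPM on release. The sum was highest in release replicate 1. The largest member, an embryonic muscle myosin heavy chain (GSOIDT00010986001), had 679 and 753 CPM in stasis and 2204 and 891 CPM on release (edgeR adjusted p = 0.144). Pyruvate kinase had 196 and 211 CPM in the same release libraries, and the part of muscle transcripts in its difference was not tested. None of the 22 was at 0 in all total RNA libraries, 1 was called higher and 1 lower (6.8% and 2.27% of all gene models), and the median log2 change was 1.08. Of the 22, 19 lay above 0, beside 48% of all gene models. Unadjusted, 12 were higher and 2 lower at p under 0.05, beside 17.3% and 13% of all gene models. Both release libraries lay above both stasis libraries for 16 and below both for 2, beside 31.3% and 31.6%. DESeq2 called 9 higher, of 1298 over all gene models. Without stasis replicate 1 edgeR called 14, of 2227 over all gene models, and without stasis replicate 2 it called 15, of 2640.

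Tropomyosin alpha-1 chain (GSOIDT00015647001), a thin filament protein, was the muscle gene model called higher, with 9.93 and 7.96 CPM in stasis and 34.3 and 21.4 CPM on release (edgeR adjusted p = 0.0299). A gene model annotated as heavy polypeptide skeletal adult (GSOIDT00015376001) fell from 149 and 96.5 CPM to 40.6 and 43.6 CPM (edgeR adjusted p = 0.0255). The largest muscle differences, in myosin light chain 5 (GSOIDT00002370001, 1.85), a regulatory subunit of the myosin motor, and in light polypeptide slow (GSOIDT00005152001, 1.68), did not pass the threshold (edgeR adjusted p = 0.0643 and 0.0671).

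The 11 digestive enzyme gene models, a gut marker list, summed to 443 and 517 CPM in stasis and to 507 and 489.8 CPM on release, so the states overlapped. Of these 0 rose and 1 fell, beside 6.8% and 2.27% of all gene models. When p was not adjusted 4 were higher and 2 lower, beside 17.3% and 13% of all gene models, and DESeq2 called 0 higher. The one that fell was chymotrypsin b (GSOIDT00013136001), from 8.45 and 9.59 CPM to 4.70 and 4.13 CPM (edgeR adjusted p = 0.0347). Pancreatic triglyceride lipase (GSOIDT00017953001) had a log2 difference of -1.46 and enteropeptidase (GSOIDT00013429001), the protease that activates trypsin, one of 0.54, and neither passed.

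The 11 tested oikosins of 12, the proteins of the house secreted by the oikoplastic epithelium, summed to 6489 and 7116 CPM in stasis and to 9242 and 8764 CPM on release. Most of each sum came from 1 oikosin-like gene model (GSOIDT00014788001), with 5131 and 5317 CPM in stasis and 6219 and 5437 CPM on release. Its log2 change was 0.16 (edgeR adjusted p = 0.652). An oikosin 6d (GSOIDT00008609001) had 738 and 1151 CPM in stasis and 1776 and 1993 CPM on release. That is a log2 change of 0.997, which did not pass the threshold (edgeR adjusted p = 0.0666). In this list 5 rose and 0 fell, beside 6.8% and 2.27% of all gene models, and 11 of 11 lay above 0, beside 48% of all gene models. Most members are neither *trans*-spliced nor in the oocyte. In the annotated rows of that class 15.2% rose, with a median log2 change of 0.20. On library totals 4 oikosins were called higher and 11 of 11 lay above 0. In RPF the median log2 change of the 11 was 0.004, with 6 above 0. In TE it was -0.84, with 2 above 0, and 0 were called in either measure. Oikosin 4c (GSOIDT00008939001) rose from 120.4 and 203 CPM to 443 and 519 CPM (log2 change 1.57, standard error 0.27, edgeR adjusted p = 0.0307), and a second oikosin 4c (GSOIDT00008547001) from 6.64 and 5.43 CPM to 12.2 and 14.5 CPM. Oikosin 7c (GSOIDT00007620001) rose from 27.8 and 26.0 CPM to 58.3 and 64.0 CPM, with close replicates. Oikosin 4a (GSOIDT00015848001) and oikosin 6a (GSOIDT00009191001) rose by log2 changes of 0.81 and 0.65. Oikosin 6a did not pass on library totals (edgeR adjusted p = 0.0616), and among gene models that had 10 or more reads in each library neither it (0.0902) nor GSOIDT00008939001 (0.0573) passed. House and muscle sums were both higher on release, the muscle sum far more in release replicate 1 than in replicate 2. The part of house transcripts in the pyruvate kinase difference was not tested either. As with the other lists, 0 oikosins were called without either release replicate, and 9 without stasis replicate 1, of 2227 over all gene models.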

How the data were processed

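Reads had adapters clipped and rRNA and tRNA matches removed, and were mapped along Genoscope models, after which the authors deposited raw read counts for protein-coding genes, with no normalization. The submitters' processing notes name Bowtie2 2.1.0, TopHat2 2.0.13 and featureCounts. Build, strand setting and handling of multiply mapped reads are not stated there, so near-identical copies are uncertain. Unmatched columns numbered 0.

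The filter was 100 reads summed over 8 libraries. Fits used edgeR 4.0.16 in R 4.3.3 (TMM within each assay, quasi-likelihood test, Benjamini-Hochberg, threshold 0.05), with TE as a state-by-assay interaction in place of the study's babel package. A standard error is the log2 change divided by the root of its F statistic. Alternatives were library totals, DESeq2 1.42.0, other filters, TMM over all libraries, a replicate or sample block and each replicate left out. Scripts were tested on simulated counts. Of 100 gene models changed by a log2 of 1, the total RNA fit called 76 and the RPF and TE fits 0 each. Of 100 changed by 2, they called 99, 2 and 19. Both libraries of a sample come from 1 pool of animals, and their deviations from the state mean correlated across genes at -0.001 (stasis) and 0.09 (release).

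The gene model, lists and naming rule were chosen with earlier results of these data known. Named were the 5 next largest called increases without overlap, the 3 nearest gene models by each distance, list members past the threshold, the 3 largest differences of each list and GAPDH. Carbohydrate kinase was named after its values were seen. GSOIDT00008554001 and the list members take their names from the 1998 annotated rows used here. Fold and p columns in those rows concern another experiment and were not used. Of the deposited gene identifiers, 0 matched the RefSeq gene table.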

Additional observations from a re-analysis of the deposited data

How the results depend on the processing

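For pyruvate kinase the direction was the same under every alternative run. Its total RNA change was 2.59 on library totals, where the median of all gene models moved from -0.02 to -0.16, and 2.66 to 2.81 with a replicate left out. Its RPF change was 1.18 to 1.92 and its TE change -1.56 to -0.72 with a replicate left out. With a replicate block (2 pairs that share a number, whose deviations correlated at 0.20 in total RNA and 0.16 in RPF) the changes were 2.74, 1.64 and -1.15, the last with a block for the sample, and total RNA calls were 1212 higher and 436 lower.

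Counts of calls moved more, and the cause was not tested. In total RNA, 993 rose and 332 fell, 675 and 888 on library totals, 94 and 20 with at least 10 reads in every library, and 0 to 2640 and 0 to 2156 with a replicate left out (0 without either release replicate, where 1560 and 838, or 1423 and 523, had an unadjusted p under 0.05). In RPF, 0 and 1 were called, 0 and 0 on library totals, by DESeq2, with no filter or with at least 10 reads, 1 and 0 with the replicate block, 1 and 3 on library totals without the 7 most abundant gene models, and 0 to 8 and 0 to 33 with a replicate left out. In TE the latter were 0 to 44 and 0 to 123.

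With at least 10 reads in every library, members called higher were 1 (carbohydrate), 2 (house), 0 (muscle) and 0 (phosphagen), and 1 was lower over all lists. DESeq2 called 4 mitochondrial, 9 muscle and 2 phosphagen members higher. The replicate block called 1 digestive, 2 mitochondrial, 8 muscle and 2 phosphagen members, no filter 1 mitochondrial member, and library totals 0 phosphagen members. With a replicate left out, the ranges were 0 to 6 (carbohydrate), 0 to 3 (phosphagen), 0 to 5 (mitochondrial), 0 to 15 (muscle), 0 to 3 (digestive) and 0 to 9 (house), and 0 to 6 lower. Pyruvate kinase had 13 RPF reads in the shallowest library, which limits its RPF and TE values.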
